A study of Mus musculus with 18 samples.

Results

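The genes described here are the 4 FGF receptor genes Fgfr1, Fgfr2, Fgfr3 and Fgfr4 and 5 genes for intracellular inhibitors of receptor signalling, Spry1, Spry2, Spry4, Spred1 and Dusp6. They were taken by name, as the array rows whose only gene symbol in the platform annotation is one of these 9, and each had exactly 1 row. They are 9 of 19938 genes measured with such a row. RNA of mouse lymphatic endothelial cells (LEC, which line lymphatic vessels) and blood vascular endothelial cells (BEC, which line blood vessels) was read on Affymetrix Mouse Gene 1.0 ST arrays, 18 in all. The 6 groups were LEC of embryonic day 14.5 (E14.5), day 16.5 (E16.5) and day 18.5 (E18.5), and BEC of the same ages. Each group had 3 biological replicates from independent litters, and LEC and BEC samples of an age came from matching litters. The labels give no genotype, strain or treatment, and they describe the isolation of the cells only through a publication that was not used here.

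FGF receptors are tyrosine kinases that bind FGF together with heparan sulfate and signal through adaptor proteins, RAS and the kinase ERK. ERK switches on genes whose products dampen the same route, among them the Sprouty (Spry) and SPRED proteins, which act between the receptor and ERK, and DUSP6, a phosphatase that removes the activating phosphates of ERK. FGF drives growth of cultured lymphatic and blood endothelium, and the VEGF receptors feed the same RAS-ERK cascade and the same inhibitors.

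Values are log2 RMA levels, so a difference of 1 is a 2-fold difference. Levels of different genes come from different probes and are not compared with each other. A level was called dim when it lay below 4.62, the 95th percentile of the group means of 1190 olfactory and vomeronasal receptor genes. No group mean of the 9 genes was dim. Arrays of 1 group correlated at 0.976 to 0.992, and with 3 arrays a group that number sets the precision.

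Lymphatic and blood endothelial markers matched the labels of the 2 cell types. All 7 measured lymphatic markers, Prox1 and Lyve1 among them, were higher in LEC over the 3 ages, and all 8 blood endothelial markers were lower. Of 8 pan-endothelial markers, 6 were lower in LEC, 0 were higher and 2 were not called (median difference -1.06). Their mean log2 level was 9.72 to 10.36 over the LEC arrays, against 10.95 to 11.33 in BEC. The part of this gap in the receptor and inhibitor values was not tested. Markers of other cell types also differed. All 8 macrophage markers and all 7 mast cell markers were higher in LEC, and all 8 mural cell markers were lower in LEC. Of 8 keratinocyte and epithelial markers, 6 were higher in LEC and 2 were not called. For fibroblasts 1 of 8 markers was higher and 2 were lower, for chondrocytes 1 of 6 was higher and 2 were lower, and the 4 measured neuron and Schwann cell markers had a median difference of -0.02.

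Over the 3 ages, 5 of the 9 genes differed between LEC and BEC. Fgfr1 was higher in LEC, and Spry4, Spry1, Dusp6 and Fgfr3 were lower. Across all genes 37.1% were called in this comparison, 18.2% higher and 19.0% lower, at a limma adjusted p under 0.05. The median difference of the 9 genes was -0.16, against -0.025 for all genes. In 5 of the 9 the 3 LEC arrays and the 3 BEC arrays of an age did not overlap at any age, against 17.0% of all genes. Those 5 were Fgfr1, Spry1, Spry4 and Dusp6, each on 1 side throughout, and Fgfr2, which was on different sides at different ages.

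**Figure D1:**
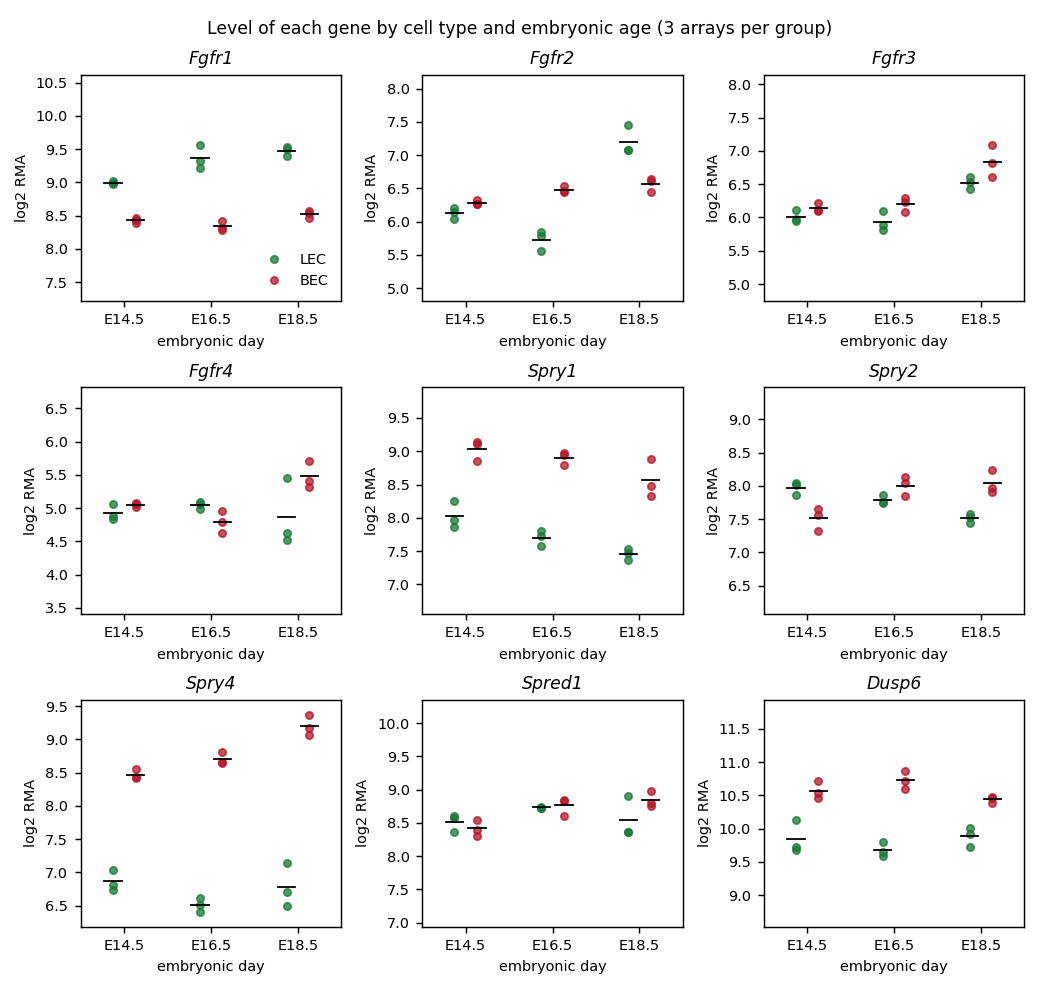
Log2 RMA level (vertical axes) of the 9 genes by embryonic day (horizontal axes), for LEC and BEC. Each point is 1 array, with 3 arrays per group, and a short line marks each group mean. Fgfr1 is higher and Spry1, Spry4 and Dusp6 are lower in LEC at every age, Fgfr2 and Spry2 cross, and Spred1 overlaps.

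Fgfr1 encodes the receptor best known in endothelium, and it is the main FGF receptor described in cultured lymphatic cells. At E14.5 it measured 9.03, 8.97 and 8.99 in LEC, against 8.47, 8.39 and 8.44 in BEC. At E16.5 the LEC arrays gave 9.32, 9.22 and 9.56, against 8.32, 8.28 and 8.41 for BEC. At E18.5 the values were 9.53, 9.39 and 9.50 in LEC, against 8.47, 8.56 and 8.53 in BEC. Every LEC array lay above every BEC array, whatever the age. The mean difference was 0.85 ± 0.06 (SE), a 1.8-fold higher level in LEC (limma adjusted p = 1.7e-10). In age order the difference was 0.56 ± 0.10, 1.03 ± 0.10 and 0.96 ± 0.10 (adjusted p = 2e-04, 6.8e-08 and 1.8e-07). In samples of many cells, more cells of a type and more RNA per cell cannot be told apart, for this gene as for the others.

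Fgfr2 encodes the receptor that epithelia use, in one of its splice forms, to read FGF7 and FGF10, and the row covers the gene without separating splice forms. At E14.5 it measured 6.21, 6.03 and 6.15 in LEC, against 6.32, 6.27 and 6.26 in BEC. At E16.5 LEC gave 5.56, 5.79 and 5.84, against 6.54, 6.46 and 6.44 in BEC. At E18.5 LEC gave 7.07, 7.08 and 7.46, against 6.64, 6.45 and 6.62 in BEC. The LEC arrays were thus all below the BEC arrays at E14.5 and E16.5 and all above them at E18.5. The difference of -0.16 ± 0.11 at E14.5 did not pass the test (adjusted p = 0.46), that of -0.75 ± 0.11 at E16.5 did (adjusted p = 3.1e-05), and so did the opposite one of 0.63 ± 0.11 at E18.5 (adjusted p = 2e-04). The mean over the ages, -0.09 ± 0.07, therefore describes none of them (adjusted p = 0.3), and without the E18.5 arrays it was -0.45 (adjusted p = 5.1e-05).

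Keratinocyte and epithelial markers were highest in the same E18.5 LEC arrays. Their mean log2 level was 5.54 to 5.71, 5.35 to 6.0 and 6.95 to 7.46 in LEC at the 3 ages in turn, against 5.13 to 5.39, 4.93 to 5.13 and 5.92 to 6.28 in BEC. Summed on the linear scale, the 8 markers reached 1590 to 2602 in LEC at E18.5, against 578 to 861 in BEC. At E18.5 none of the 8 was dim in either cell type, and 6 were higher in LEC. Their part in the Fgfr2 and Fgfr3 values was not tested.

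Fgfr3 has been described as a target of PROX1 in cultured human lymphatic cells. Its level was 5.97, 6.11 and 5.94 in LEC at E14.5, against 6.10, 6.22 and 6.11 in BEC. At E16.5 it was 5.81, 5.88 and 6.10 in LEC, against 6.23, 6.08 and 6.29 in BEC. At E18.5 it was 6.53, 6.43 and 6.60 in LEC, against 6.60, 6.81 and 7.08 in BEC. The groups overlapped at each age, and the mean difference was small, -0.24 ± 0.07 (adjusted p = 0.0092). No single age passed, with -0.14 ± 0.12, -0.27 ± 0.12 and -0.31 ± 0.12 in age order (adjusted p = 0.57, 0.12 and 0.055). The E18.5 difference did pass in 5 alternatives: without BEC replicate 1 (-0.43, adjusted p = 0.012), with quantile normalization (adjusted p = 0.014), with dim genes left out (adjusted p = 0.038), after shifting arrays to 1 median (adjusted p = 0.042) or on blocking by litter (adjusted p = 0.048). The E16.5 difference passed with array weights (-0.31, adjusted p = 0.026).

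Fgfr4, a receptor best known from liver and muscle, was close to the dim bound, with group means of 4.79 to 5.48. At E18.5 it measured 4.51, 5.45 and 4.63 in LEC, against 5.71, 5.31 and 5.40 in BEC. LEC replicate 2 lay among the BEC arrays, far from the other 2 LEC arrays. The E18.5 difference of -0.61 ± 0.18 (adjusted p = 0.013) was lost with only the E18.5 groups in the fit (adjusted p = 0.091). It was also lost without LEC replicate 1 (-0.44, adjusted p = 0.077), LEC replicate 3 (-0.50, adjusted p = 0.064) or BEC replicate 1 (-0.49, adjusted p = 0.066). Without the divergent LEC replicate 2 it was larger (-0.905, adjusted p = 2.5e-05). Over the 3 ages the difference was -0.16 ± 0.10 (adjusted p = 0.25), and it passed only on leaving out that divergent LEC array (-0.26, adjusted p = 0.0056).

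Of the 5 inhibitors, Spry4, Spry1 and Dusp6 were lower in LEC at each of the 3 ages, Spry2 changed sides, and Spred1 was called at none. The median difference of the 5 over the ages was -0.78, and that of the 4 receptors was -0.13. The promoters of 2 inhibitors that were lower in LEC throughout, Spry1 and Dusp6, and of Spry2, which was not, are shown because the ETS factors that ERK activates bind a GGAA core. Each run holds the 250 bases before the RefSeq start in build GRCm38.p6, 5′ to 3′ on the gene's strand, with GGAA or its reverse complement TTCC in capitals. The coordinates are chr3:37639697-37639946 (plus strand) for Spry1, chr10:99262981-99263230 (plus strand) for Dusp6 and chr14:105896820-105897069 (minus strand) for Spry2.
Spry1: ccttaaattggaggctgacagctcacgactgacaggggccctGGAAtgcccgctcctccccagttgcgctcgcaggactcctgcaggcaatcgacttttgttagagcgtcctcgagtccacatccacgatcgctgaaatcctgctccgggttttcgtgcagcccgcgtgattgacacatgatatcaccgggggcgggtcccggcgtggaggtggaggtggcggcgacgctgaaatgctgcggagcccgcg
Dusp6: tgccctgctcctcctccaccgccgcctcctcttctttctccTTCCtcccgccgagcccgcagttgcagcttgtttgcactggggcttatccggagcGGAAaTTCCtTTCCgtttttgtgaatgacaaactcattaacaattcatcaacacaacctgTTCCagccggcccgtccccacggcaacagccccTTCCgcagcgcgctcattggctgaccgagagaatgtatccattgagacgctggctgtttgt
Spry2: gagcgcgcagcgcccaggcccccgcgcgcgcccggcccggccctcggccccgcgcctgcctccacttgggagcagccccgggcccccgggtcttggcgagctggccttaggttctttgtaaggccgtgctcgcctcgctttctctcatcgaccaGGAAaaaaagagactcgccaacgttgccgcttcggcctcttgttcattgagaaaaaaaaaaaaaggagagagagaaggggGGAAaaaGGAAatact

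The Spry1 window held 1 core, the Dusp6 window 6 and the Spry2 window 3. Over all 32841 RefSeq mouse promoters of this length the median was 3 cores, 54.7% had at least 3 and 8.69% had at least 6. The longer ETS motif CCGGAA (or TTCCGG), which contains the core, was in none of these 3 windows, and in 12% of all promoters. GATAA (or TTATC), a letter match to the sites of GATA factors, occurred 1 time in the Dusp6 window and in neither Sprouty window, against 22.6% of all promoters. Promoter entries were found for 7 of the 9 genes, all but Fgfr1 and Spry4. Among the 7 only Fgfr4 had a CCGGAA match. These are letter matches and not measured sites.

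Spry4 encodes a Sprouty protein that dampens FGF and VEGF signalling to ERK and has been described as an inhibitor of vessel growth. In LEC it measured 7.04, 6.74 and 6.82 at E14.5, against 8.43, 8.41 and 8.55 in BEC. At E16.5 it gave 6.51, 6.40 and 6.62 in LEC, against 8.65, 8.82 and 8.64 in BEC. At E18.5 it gave 6.71, 7.14 and 6.50 in LEC, against 9.07, 9.17 and 9.37 in BEC. The highest LEC array, 7.14, stood below the lowest BEC array, 8.41. Over the ages Spry4 was lower in LEC by 4.2-fold (-2.07 ± 0.08, adjusted p = 7.8e-14), the widest gap of the 9 genes. The difference was -1.60 ± 0.14, -2.19 ± 0.14 and -2.42 ± 0.14 in age order (adjusted p = 5.1e-08, 3.3e-10 and 8.8e-11).

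Spry1, the Sprouty gene that keeps receptor signalling in check in the developing kidney, showed the same side. At E14.5 it measured 8.25, 7.96 and 7.87 in LEC, against 9.15, 8.86 and 9.11 in BEC. At E16.5 LEC gave 7.72, 7.57 and 7.80, against 8.97, 8.94 and 8.79 in BEC. At E18.5 LEC gave 7.37, 7.47 and 7.53, against 8.32, 8.89 and 8.47 in BEC. All 9 LEC arrays lay below all 9 BEC arrays, the closest being 8.25 in LEC at E14.5 and 8.32 in BEC at E18.5. The mean difference was -1.11 ± 0.08, a 2.15-fold lower level in LEC (adjusted p = 7.8e-10). By age it was -1.01 ± 0.14, -1.21 ± 0.14 and -1.10 ± 0.14 (adjusted p = 1.6e-05, 1.1e-06 and 3.4e-06).

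Dusp6, whose product is the cytoplasmic ERK phosphatase widely used as a readout of FGF activity in embryos, was bright in both cell types. It measured 10.13, 9.67 and 9.73 in LEC at E14.5, against 10.71, 10.46 and 10.53 in BEC. At E16.5 it gave 9.65, 9.59 and 9.80 in LEC, against 10.87, 10.72 and 10.59 in BEC. At E18.5 it gave 9.73, 10.01 and 9.92 in LEC, against 10.48, 10.39 and 10.46 in BEC. The groups did not overlap at any age. Dusp6 was lower in LEC by 1.71-fold over the ages (-0.78 ± 0.07, adjusted p = 3.4e-08), and its differences in age order were -0.72 ± 0.13, -1.05 ± 0.13 and -0.56 ± 0.13 (adjusted p = 0.00025, 1.9e-06 and 0.0019).

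Spry2, the Sprouty gene with broad roles in branching organs, crossed. At E14.5 it measured 8.05, 7.86 and 8.01 in LEC, against 7.56, 7.33 and 7.66 in BEC. At E16.5 it measured 7.86, 7.75 and 7.75 in LEC, against 8.04, 8.13 and 7.85 in BEC. At E18.5 it measured 7.44, 7.57 and 7.53 in LEC, against 7.97, 8.23 and 7.91 in BEC. The LEC arrays were above all BEC arrays at E14.5, overlapped them at E16.5, and were below all of them 2 days later. The differences were 0.46 ± 0.11 (adjusted p = 0.0069), -0.22 ± 0.11 (adjusted p = 0.2) and -0.53 ± 0.11 (adjusted p = 0.0014). The E14.5 call was lost without BEC replicate 2 (0.36, adjusted p = 0.056), and the mean over the ages was -0.10 ± 0.07 (adjusted p = 0.29).

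Spred1 encodes a membrane-bound inhibitor of RAS activation, and mice lacking it together with its relative Spred2 have defective lymphatic vessels. Its values ran from 8.36 to 8.90 in LEC and from 8.31 to 8.98 in BEC, overlapping throughout. The mean difference was -0.08, with a 95% interval of -0.24 to 0.08 (adjusted p = 0.48). At E18.5 the LEC arrays gave 8.90, 8.36 and 8.36, against 8.80, 8.98 and 8.75 in BEC. LEC replicate 1 stood with BEC there, and without it the difference of -0.31 ± 0.13 (adjusted p = 0.093) was -0.49 (adjusted p = 0.0032). With all arrays the difference passed under an intensity trend and robust fit (adjusted p = 0.048).

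By single age the background differed. At E14.5, 5 of the 9 genes were called (2 higher and 3 lower in LEC), against 16.5% of all genes (8.60% higher and 7.94% lower). At E16.5 the count was again 5 (1 higher and 4 lower), against 25.2% (13.0% higher and 12.2% lower). At E18.5 it was 7 (2 higher and 5 lower), against 30.4% (14.6% higher and 15.9% lower). The median difference of the 9 genes at the 3 ages was -0.14, -0.27 and -0.53, beside -0.026, -0.002 and -0.043 for all genes.

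**Figure D2:**
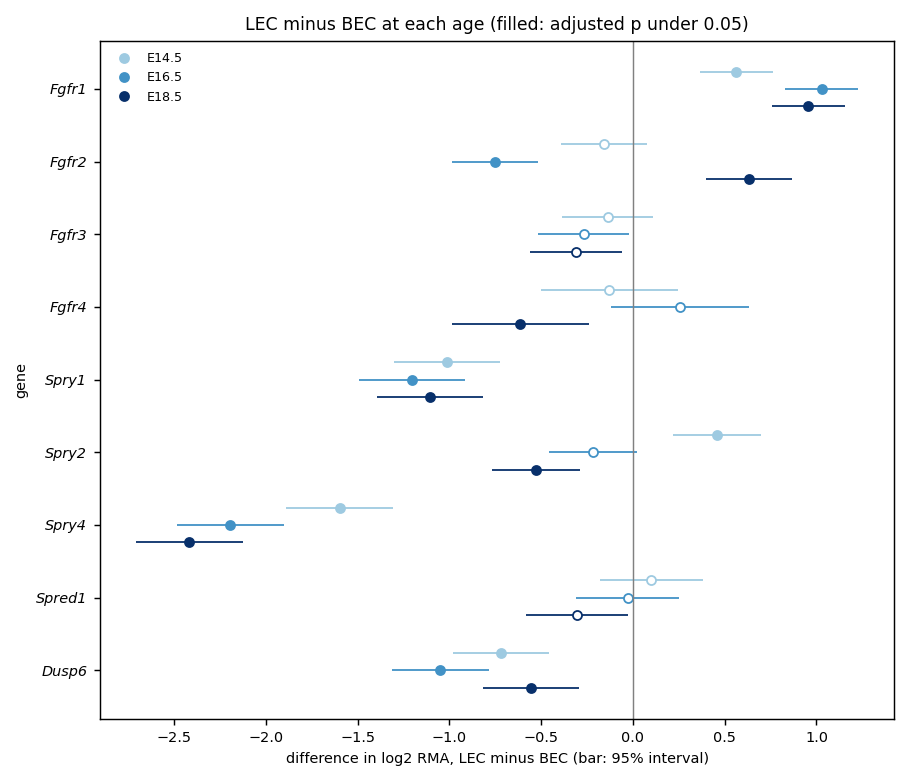
Difference in log2 RMA, LEC minus BEC (horizontal axis), of the 9 genes (vertical axis) at each age, with 95% intervals. Spry4 lies farthest below 0 at all 3 ages (-1.60, -2.19 and -2.42), Fgfr1 lies above 0 at all 3, and Fgfr2 and Spry2 change sides.

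Mural cell markers went with the BEC arrays and rose there with age. Their mean log2 level was 5.60 to 5.67, 5.64 to 5.81 and 5.71 to 6.01 in LEC at the 3 ages, against 5.96 to 6.11, 6.96 to 7.12 and 8.05 to 8.15 in BEC. Macrophage markers went with LEC, at 6.32 to 6.50, 7.56 to 8.73 and 8.74 to 9.33, against 5.08 to 5.72 over the BEC arrays. Mast cell markers were at 8.42 to 9.85 over the LEC arrays, against 5.63 to 7.56 in BEC. The part of these cells in the receptor and inhibitor values was not tested.

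**Figure D3:**
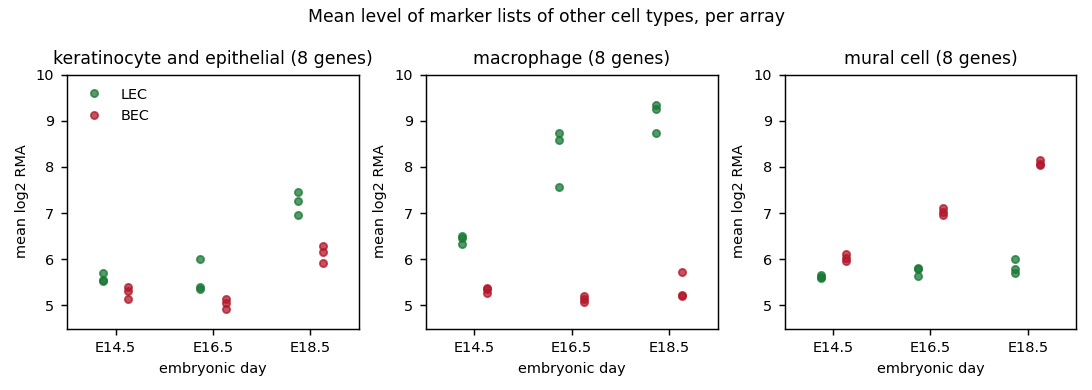
Mean log2 RMA of marker lists of other cell types (vertical axes) on each of the 18 arrays, by embryonic day (horizontal axes), for LEC and BEC. Keratinocyte markers reach 6.95 to 7.46 in LEC at E18.5, macrophage markers 8.74 to 9.33 in the same arrays, and mural markers 8.05 to 8.15 in BEC at E18.5.

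Change with age was followed within each cell type. The 3 comparisons of a cell type share arrays and are not independent of each other. In LEC, 5 of the 9 genes differed at E18.5 from E14.5: Fgfr1, Fgfr2 and Fgfr3 were higher and Spry1 and Spry2 lower, where 40.9% of all genes were called (19.7% higher and 21.2% lower). In BEC, 5 differed as well: Fgfr3, Spry2, Spry4 and Spred1 were higher and Spry1 lower, where 30.6% were called (13.3% higher and 17.3% lower). The 4 receptors had a median change of 0.50 in LEC and 0.35 in BEC, and the 5 inhibitors -0.08 in LEC and 0.43 in BEC. The median change of all genes was 0.042 in LEC and 0.035 in BEC.

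Of the 9 genes Fgfr2 gave the largest change in LEC, 1.07 ± 0.11 at E18.5 over E14.5 (adjusted p = 3.8e-07), against 0.29 ± 0.11 in BEC (adjusted p = 0.063). The changes differed by 0.79 ± 0.16 (adjusted p = 0.0029). In LEC its E16.5 level was below that of E14.5 (-0.40 ± 0.11, adjusted p = 0.022), and then 1.47 ± 0.11 higher at E18.5 than at E16.5 (adjusted p = 8.3e-08). The E16.5 call was lost without LEC E14.5 replicate 1 (-0.36, adjusted p = 0.09) or replicate 3 (-0.39, adjusted p = 0.074), or without LEC E16.5 replicate 1 (-0.32, adjusted p = 0.13). The BEC change passed without BEC E18.5 replicate 2 (0.35, adjusted p = 0.043), with quantile normalization (0.34, adjusted p = 0.025) and with dim genes left out (adjusted p = 0.042).

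Fgfr1 was higher by 0.48 ± 0.10 in LEC at E18.5 than at E14.5 (adjusted p = 0.00046), and the BEC change was 0.09 ± 0.10 (adjusted p = 0.54). The difference between them, 0.39 ± 0.14, did not pass (adjusted p = 0.084), although it did with an intensity trend and robust fit (adjusted p = 0.036). Its LEC level at E16.5 was already 0.37 ± 0.10 above E14.5 (adjusted p = 0.013), which without LEC E16.5 replicate 3 was 0.27 (adjusted p = 0.082). Fgfr3 rose in both cell types, by 0.52 ± 0.12 in LEC and 0.69 ± 0.12 in BEC (adjusted p = 0.0016 and 0.00017), and these changes were not shown to differ (-0.17, 95% interval -0.53 to 0.18). At E18.5 it was above its E16.5 level by 0.59 ± 0.12 in LEC and 0.64 ± 0.12 in BEC (adjusted p = 0.00085 and 0.00067). Keratinocyte markers rose over the same interval, 6 of 8 in LEC and 8 of 8 in BEC, and their part was not tested. Fgfr4 was higher in BEC at E18.5 than at E16.5 by 0.69 ± 0.18 (adjusted p = 0.0074). Its LEC changes hung on LEC E18.5 replicate 2, without which the E18.5 level was -0.48 from E16.5 (adjusted p = 0.0092) and -0.35 from E14.5 (adjusted p = 0.036), and the difference from the BEC change was -0.78 (adjusted p = 0.0076).

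Spry2 moved in opposite directions. At E18.5 it was below its E14.5 level in LEC, by -0.46 ± 0.11 (adjusted p = 0.003), and above it by 0.53 ± 0.11 in BEC (adjusted p = 0.0015). The changes differed by -0.98 ± 0.16 (adjusted p = 0.00047). In BEC it stood 0.49 ± 0.11 above E14.5 by E16.5 (adjusted p = 0.011), a call lost without BEC E14.5 replicate 2 (0.40, adjusted p = 0.069) or BEC E16.5 replicate 2 (0.43, adjusted p = 0.066). Spry4 was 0.74 ± 0.14 higher in BEC (adjusted p = 0.00042) and -0.08 ± 0.14 from its E14.5 level in LEC (adjusted p = 0.68). Those changes differed by -0.82 ± 0.20 (adjusted p = 0.011). In LEC at E16.5 Spry4 was -0.36 ± 0.14 from its E14.5 level (adjusted p = 0.1). That difference passed with array weights (adjusted p = 0.029) and without the E18.5 arrays (adjusted p = 0.022). All 8 mural markers were also higher in BEC at E18.5 than at E14.5. From E16.5 to E18.5 in BEC 7 of the 8 were higher, and Spry4 was higher by 0.50 ± 0.14 (adjusted p = 0.011). Spry2 was not called over that interval (0.03 ± 0.11, adjusted p = 0.83). In LEC 3 of the 8 mural markers were higher and 3 lower at E18.5 than at E14.5. The part of mural cells was not tested.

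Spry1 was lower at E18.5 than at E14.5 in both cell types, by -0.57 ± 0.14 in LEC and -0.48 ± 0.14 in BEC (adjusted p = 0.0026 and 0.012). The difference between these changes was -0.09, with a 95% interval of -0.50 to 0.32. The BEC call was lost without BEC E14.5 replicate 1 (-0.42, adjusted p = 0.054) or replicate 3 (-0.44, adjusted p = 0.051), or BEC E18.5 replicate 1 (-0.36, adjusted p = 0.078). Without BEC E18.5 replicate 2, its difference between E18.5 and E16.5 passed instead (-0.51, adjusted p = 0.0086). Spred1 was 0.43 ± 0.13 higher in BEC (adjusted p = 0.019), a call lost without BEC E14.5 replicate 2 (0.42, adjusted p = 0.055) or replicate 3 (0.37, adjusted p = 0.085), or BEC E18.5 replicate 2 (0.36, adjusted p = 0.078). Without BEC E14.5 replicate 3 the number of the 9 genes called in BEC was 3. In LEC Spred1 was 0.02 ± 0.13 from its E14.5 level (adjusted p = 0.91). Without LEC E18.5 replicate 1 it was lower at E18.5 than at E16.5 (-0.38, adjusted p = 0.018), and its LEC and BEC changes then differed by -0.59 (adjusted p = 0.02). Dusp6 differed by 0.04 ± 0.13 in LEC and -0.12 ± 0.13 in BEC (adjusted p = 0.84 and 0.51).

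**Figure D4:**
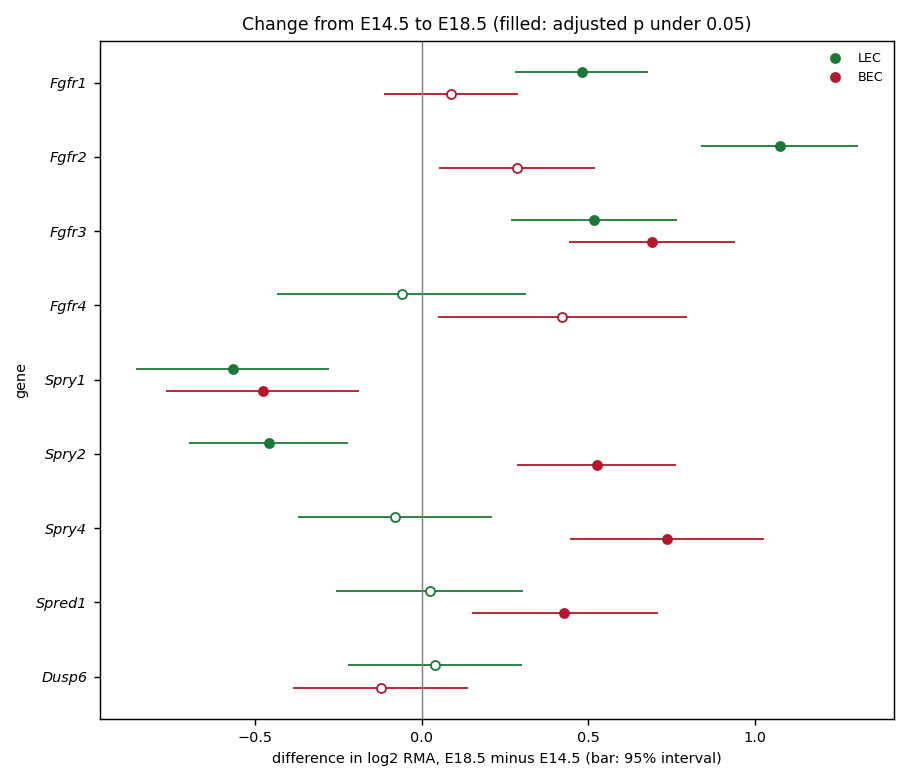
Change in log2 RMA, E18.5 minus E14.5 (horizontal axis), of the 9 genes (vertical axis) in LEC and BEC, with 95% intervals and filled points at an adjusted p under 0.05. Spry2 lies on opposite sides of 0 (-0.46 in LEC and 0.53 in BEC), and Fgfr2 lies farthest right in LEC (1.07).

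The changes of LEC and BEC from E14.5 to E18.5 differed for 3 of the 9 genes, Fgfr2, Spry2 and Spry4, against 8.85% of all genes. Between E16.5 and E14.5, 2 of the 9 were called in LEC (Fgfr1 and Fgfr2, against 13.8% of all genes) and 1 in BEC (Spry2, against 9.76%). Between E18.5 and E16.5, 2 were called in LEC (Fgfr2 and Fgfr3, against 34.4%) and 3 in BEC (Fgfr3, Fgfr4 and Spry4, against 32.3%). Without LEC E18.5 replicate 3, Spry4 also passed in LEC (0.42, adjusted p = 0.031). Shifting every array to a common median moved the share of higher genes among all genes called. It was 26.6%, against 46.3% as deposited, for E18.5 minus E16.5 in LEC, and 30.5%, against 49.1%, for the same ages in BEC. For E18.5 minus E14.5 in LEC it was 37.6%, against 48.2%, and for E16.5 minus E14.5 in BEC 66.4%, against 52.2%. The median change of all genes from E16.5 to E18.5 in LEC was then -0.066, against 0.052 as deposited.

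Other genes of the route were read from 5 lists that name 104 genes, 96 of them measured. Each list's count over the 3 ages stands beside the 37.1% of all genes called between LEC and BEC (18.2% higher and 19.0% lower). Its count for E18.5 against E14.5 stands beside 40.9% of all genes in LEC and 30.6% in BEC. The first holds 24 FGF ligands and FGF-binding proteins, of which 5 were dim in every group. In LEC 4 of the 24 were higher over the ages and 1 was lower, where 37.1% of all genes were called, and the median difference was -0.01. Fgf12 and Fgf13 encode FGF homologous factors that stay inside the cell. Fgf13 was higher in LEC by 0.84 ± 0.09 (adjusted p = 3.1e-07). Fgf12 averaged 5.49, 5.53 and 6.19 in LEC at the 3 ages, against 4.56, 4.08 and 4.31 in BEC, all 3 of them dim. Its fitted difference of 1.42 ± 0.07 (adjusted p = 2.1e-12) is therefore taken against background levels. Fgf2, a secreted growth factor for endothelium, averaged 4.83 in LEC at E18.5 and was dim in the other 5 groups. Fgfbp1, whose product releases FGF from matrix, and Fgf1 averaged 4.88 and 4.79 in LEC at E18.5 and were likewise dim elsewhere. All 3 were called higher in LEC at E18.5 than at E14.5, with fitted differences of 0.99 ± 0.14, 0.93 ± 0.15 and 0.63 ± 0.13 taken against background levels. Fgf12 was higher by 0.70 ± 0.12 in that comparison, in which 4 of the 24 genes were higher and 20 were not called.

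The 24 measured co-receptor and heparan sulfate genes included 10 that were higher in LEC and 4 that were lower (median difference 0.11), where 37.1% of all genes were called. Hs6st2, which adds sulfate at the 6-O position of heparan sulfate, was higher in LEC by 2.81 ± 0.12 (adjusted p = 2.5e-13). Sulf2, which removes that sulfate outside the cell, was higher too, by 1.57 ± 0.09 (adjusted p = 1.2e-11). Flrt3, a membrane protein that can bind FGF receptors, was higher by 2.01 ± 0.09, and the N-sulfating enzyme gene Ndst2 by 1.86 ± 0.10. Gpc4, a glypican core protein, was lower in LEC (-1.52 ± 0.07, adjusted p = 2.3e-12). Between E18.5 and E14.5, 11 were higher and 3 lower in LEC, and 8 were higher and 5 lower in BEC. Sdc4, a syndecan, was higher in LEC at E18.5 by 2.31 ± 0.16, Ncam1 by 1.52 ± 0.13, Sulf1 by 1.39 ± 0.14 and Gpc4 by 1.19 ± 0.13. In BEC Sulf2 fell by 1.83 ± 0.15, while Sulf1 (1.66 ± 0.14) and Gpc4 (0.91 ± 0.13) rose. Sdc2 was called higher there as well (1.04 ± 0.17), against a dim level of 4.06 at E14.5.

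Of the adaptors and the RAS-ERK cascade, 17 of 24 genes were measured. In LEC 4 of the 17 lay above their BEC level and 7 below it (median difference -0.02), where 18.2% of all genes were higher and 19.0% lower. Gab1, a docking protein for several receptor kinases, was lower (-0.84 ± 0.07, adjusted p = 2.4e-09). Its relative Gab2 was higher by 0.58 ± 0.05, as were the adaptors Shc1 by 0.76 ± 0.07 and Grb2 by 0.32 ± 0.06. Nf1, which switches RAS off, was higher by 0.19 ± 0.05 (adjusted p = 0.0054), a call lost without the E18.5 arrays (0.15, adjusted p = 0.054). At E18.5 against E14.5, 6 were higher and 3 lower in LEC, and 4 were higher and 5 lower in BEC. Map2k2, one of the MEK kinases that activate ERK, was lower at E18.5 than at E14.5 in LEC (-1.44 ± 0.14) and in BEC (-1.04 ± 0.14). Map2k1, the other MEK gene, was lower in BEC (-0.79 ± 0.12). Rasa1, which also switches RAS off, was higher at E18.5 in LEC by 0.98 ± 0.10 and in BEC by 0.60 ± 0.10. Sos2, a RAS activator, was higher by 0.69 ± 0.11 in LEC and by 0.49 ± 0.11 in BEC, and Gab1 was higher in LEC by 0.83 ± 0.11.

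Of 15 other feedback inhibitors, 6 were lower in LEC and 5 higher (median difference -0.08), where 19.0% of all genes were lower and 18.2% higher. Il17rd, also called SEF, a membrane inhibitor of FGF signalling, was lower by a difference of -1.58 ± 0.07 (adjusted p = 5.3e-13). Dusp5, the nuclear ERK phosphatase, was higher by 1.47 ± 0.12 (adjusted p = 3.7e-09), on the opposite side from cytoplasmic Dusp6. Rasa3, a GTPase-activating protein, was lower (-0.76 ± 0.06) and so was Spred3 (-0.69 ± 0.07), and Lrig1, which restrains several receptor kinases, was higher by 0.72 ± 0.07. With age 4 of the 15 were higher and 3 lower in LEC, and 2 were higher and 2 lower in BEC. Dusp1, a phosphatase of stress-activated kinases and ERK, was higher at E18.5 than at E14.5 by 1.21 ± 0.09 in LEC and 1.12 ± 0.09 in BEC. Errfi1, an inhibitor of the EGF receptor, was higher by 0.90 ± 0.14 in LEC and 1.49 ± 0.14 in BEC. Spred2 was lower in LEC at E18.5 (-0.63 ± 0.13, adjusted p = 0.00052) and differed by 0.33 ± 0.13 in BEC (adjusted p = 0.057), and these changes differed (-0.96 ± 0.18, adjusted p = 0.0015). Rasa3 was lower at E18.5 in LEC (-0.63 ± 0.11). In BEC Dusp4 was lower (-0.76 ± 0.16) and Rasa3 was lower (-0.38 ± 0.11, adjusted p = 0.011), which failed without BEC E14.5 replicate 2 (-0.31, adjusted p = 0.067) or BEC E18.5 replicate 1 (-0.33, adjusted p = 0.051).

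The 16 ERK-responsive genes split into 9 that were higher in LEC, 2 that were lower and 5 that were not called (median difference 0.23), where 37.1% of all genes were called. Ccnd1, the cyclin that couples growth signals to the cell cycle, was lower (-1.66 ± 0.06, adjusted p = 1.6e-14). Hk2, the hexokinase whose level FGF sustains through MYC in cultured lymphatic cells, was higher by 1.57 ± 0.07 (adjusted p = 7.6e-13). The urokinase receptor gene Plaur (1.03 ± 0.07) and the immediate early genes Egr2 (0.90 ± 0.10) and Egr3 (0.79 ± 0.10) were higher as well. At E18.5 against E14.5, 7 of the 16 were higher and 5 lower in LEC, where 40.9% of all genes were called, and 8 were higher and 2 lower in BEC, where 30.6% were. The 4 largest in either cell type were those of Fos, Klf4, Egr2 and Egr1. Fos was higher at E18.5 by 1.88 ± 0.13 in LEC and 1.96 ± 0.13 in BEC, Klf4 by 1.81 ± 0.17 in LEC and 1.49 ± 0.17 in BEC. Egr2 was higher by 1.79 ± 0.18 in LEC and 1.45 ± 0.18 in BEC, and Egr1 by 1.40 ± 0.12 in LEC and 1.53 ± 0.12 in BEC. Egr3 was higher by 0.59 ± 0.17 in LEC and 0.63 ± 0.17 in BEC, while the early response gene Ier3 was lower in LEC (-0.79) and higher in BEC (1.29). The ETS factor genes Etv1, Etv4 and Etv5, which classically follow FGF activity, were singled out, as were the age changes of Egr3 and Ier3, after their values were seen. Etv5 was higher in LEC by 0.27 ± 0.08 (adjusted p = 0.0095), while Etv4 differed by -0.12 ± 0.11 (adjusted p = 0.42) and Etv1 by -0.11 ± 0.07 (adjusted p = 0.26). Etv4 was lower at E18.5 than at E14.5 in LEC (-0.92 ± 0.18) and in BEC (-1.28 ± 0.18). Macrophage and mast cell markers were higher in the same LEC arrays, and their part in these lists was not tested.

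**Figure D5:**
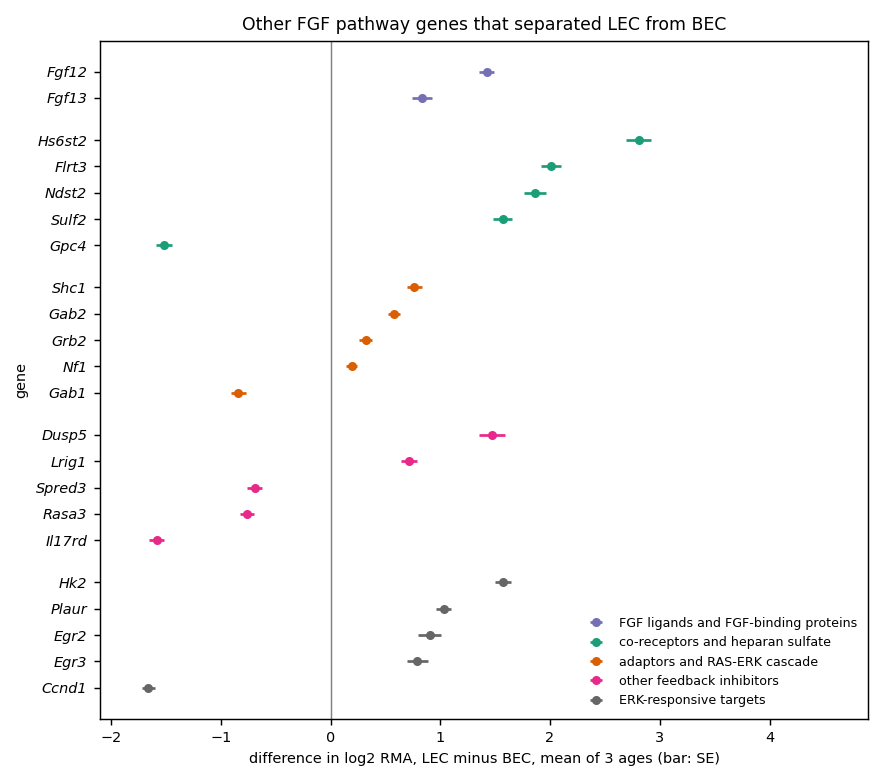
Difference in log2 RMA, LEC minus BEC as the mean of 3 ages (horizontal axis, bars show SE), of the named genes of the 5 lists (vertical axis, coloured by list). Hs6st2 lies farthest right (2.81), and Ccnd1 (-1.66), Il17rd (-1.58) and Gpc4 (-1.52) lie farthest left.

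The order of the 6 group means shows how the 9 genes vary among themselves. The means of Spry4 spanned 2.69, with LEC at E16.5 lowest (6.51 ± 0.11, SD, n = 3) and BEC at E18.5 highest (9.20 ± 0.15). The 3 BEC groups were each apart from the next, while the 3 LEC groups overlapped their neighbours in the order. Spry1 spanned 1.58, Fgfr2 1.47, Fgfr1 1.14 and Dusp6 1.05. In Fgfr1, Spry1, Spry4 and Dusp6 the widest step in the order lay between the LEC and the BEC groups, at 0.48, 0.54, 1.60 and 0.56. In Fgfr2 the widest step was 0.63, between LEC at E18.5 (7.20 ± 0.22) and BEC at E18.5 (6.57 ± 0.10). Spans were under 1 for Fgfr3 (0.90), Fgfr4 (0.69), Spry2 (0.53) and Spred1 (0.43).

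For the 5 genes whose means spanned at least 1, the genes with the closest pattern were found by the root mean square difference of the 6 centred group means. For Spry4 these were Adgrl2 (0.11), Jag2 (0.138) and Ptprg (0.141). Adgrl2 averaged 8.77, 8.57 and 8.82 in LEC at the 3 ages, against 10.46, 10.95 and 11.15 in BEC. For Fgfr1 they were Cd200r2 (0.042), Ppfibp1 (0.077) and Fbxl21 (0.079). Cd200r2 was dim in LEC at E14.5 (4.16) and in BEC at all 3 ages (3.62, 3.52 and 3.78). Fbxl21 was dim in the same groups, at 4.43 in LEC at E14.5 and 4.01, 3.94 and 4.17 in BEC, so 4 of the 6 means behind both matches were background levels. For Fgfr2 they were Ctsk (0.143), Fat1 (0.158) and Marcksl1 (0.181). The closest to Spry1 were Myo19 (0.06), Lzts2 (0.065) and Aif1l (0.075), and the closest to Dusp6 were Tmem120b (0.056), Sowahc (0.058) and Rbfox2 (0.066).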

How the data were processed

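The authors deposited log2 expression levels. The submitters' processing notes name RMA and the package oligo (version 1.54.1). RMA corrects background, quantile-normalizes arrays and summarises the probes of a transcript cluster. Not given in the sources used here were the genome build, the summary level, any filter and whether the 18 arrays were normalized as 1 set. Arrays give no read depth. The interquartile range per array was 3.18 to 3.36 at E18.5 and 3.40 to 3.64 earlier.

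The table held 35556 rows. The platform annotation listed 23410, of which 21789 had 1 gene symbol and 1621 several, and 12146 were unnamed here. Entrez identifiers of 21698 single-symbol rows were found in the RefSeq gene table, and 0 symbols changed. Taking the brightest row of each gene gave 19938 genes, dim ones included.

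In R 4.3.3, limma 3.58.1 fitted the means of the 6 groups over the 18 arrays (functions lmFit and contrasts.fit, then eBayes without trend), with 12 residual and 6.11 prior degrees of freedom and no pairing of litters. There were 11 contrasts, each with two-sided p values adjusted by Benjamini-Hochberg over all 19938 genes and calls at an adjusted p under 0.05. Errors of differences are limma standard errors. The code was tested on simulated data.

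The 9 genes and all lists were chosen with earlier results of these data known. From each of the 5 pathway lists the text names up to 5 called genes with the largest LEC to BEC difference and up to 4 with the largest change from E14.5 to E18.5 in LEC and in BEC, where arrays of the groups compared did not overlap. For each of the 9 genes whose group means spanned at least 1, the 3 genes of closest pattern are named, passing over predicted, RIKEN, olfactory, vomeronasal and microRNA genes.

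Pairing was checked because LEC and BEC samples share replicate numbers and the design text names matching litters, without saying that a number marks a litter. Deviations of the 9 same-numbered pairs correlated at -0.107 to 0.13, with 3 over 0.1, and those of the other pairs at -0.176 to 0.159. With 3 arrays per group these values do not decide whether a number marks a litter. The main fit did not pair the samples. The alternatives tried were litter as a fixed or a random block, a common median, quantile normalization, a filter on dim genes, the mean of a gene's rows, an intensity trend with robust fit, array weights, only the compared groups, no E18.5 arrays and leaving out each array.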

Additional observations from a re-analysis of the deposited data

Results flagged for a closer look

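By the test of their difference, the changes from E14.5 to E18.5 differed between LEC and BEC for 3 of the 9 genes. Of all genes, 8.85% were called in that test. For Fgfr2 the LEC change exceeded the BEC change by 0.789. For Spry2 the LEC change minus the BEC change was -0.984, with a fall in LEC and a rise in BEC. For Spry4 it was -0.818, with a rise in BEC and no change passing the test in LEC. With each of the 12 arrays left out in turn, the 3 differences ran from 0.662 to 0.854, from -1.054 to -0.888 and from -0.997 to -0.677, and all remained past the test. As for Fgfr2, the LEC change was above the BEC change for 5 of 8 keratinocyte markers, and also for all 8 macrophage and all 7 lymphatic markers. At E16.5, 4 of 8 keratinocyte markers were higher in LEC and 0 lower, and Fgfr2 was lower (-0.75). For 7 of 8 mural markers the LEC change was below the BEC change, as for Spry2 and Spry4. From E16.5 to E18.5 in BEC 7 of 8 mural markers rose. Over that interval Spry4 rose (0.50) and Spry2 was not called (0.03). The part of these cells was not tested.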

How the results depend on the processing

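Fgfr1, Spry1, Spry4 and Dusp6 kept their direction and call between LEC and BEC, over the ages and at each age, under every alternative run. The number of the 9 genes called in BEC between E16.5 and E14.5 was 2 with array weights and 2 without the E18.5 arrays (1 as reported), and between E18.5 and E16.5 it was 5 with a common median and 5 with a trend and robust fit (3 as reported). With each array left out in turn, the counts ran from 5 to 6 for LEC minus BEC over the ages, 4 to 5 at E14.5, 5 to 5 at E16.5 and 6 to 7 at E18.5. For E16.5 minus E14.5, E18.5 minus E16.5 and E18.5 minus E14.5 they ran from 1 to 2, 2 to 3 and 5 to 6 in LEC, and from 0 to 1, 3 to 4 and 3 to 5 in BEC, and from 3 to 4 for the difference of the changes. All sign changes were of values that did not pass the test as reported. Without the E18.5 arrays the mean LEC minus BEC difference was 0.064 for Fgfr4, 0.12 for Spry2 and 0.035 for Spred1. With a common median the LEC change was -0.009 for Fgfr1 from E16.5 to E18.5, and -0.064 for Spred1 and -0.048 for Dusp6 from E14.5 to E18.5. The BEC change from E16.5 to E18.5 was then -0.005 for Fgfr2, -0.059 for Spry2 and -0.011 for Spred1. With array weights the LEC change of Spred1 from E14.5 to E18.5 was -0.004. Leaving out single arrays gave -0.105 to 0.013 for Spred1 between LEC and BEC at E16.5. For the LEC change from E14.5 to E18.5 it gave -0.354 to 0.113 for Fgfr4, -0.262 to 0.059 for Spry4, -0.160 to 0.114 for Spred1 and -0.047 to 0.182 for Dusp6. It gave -0.062 to 0.098 for Spry2 in BEC from E16.5 to E18.5 and -0.210 to 0.073 for the difference of the Spry1 changes. Over all genes, 3707 were called at E18.5 with only the compared groups (6071 as reported). For E16.5 minus E14.5, array weights called 4544 in LEC and 4022 in BEC and the fit without E18.5 called 3318 in BEC, where 2749 in LEC and 1945 in BEC were called as reported and 1758 and 850 were the lowest counts with 1 array left out. With litter as a fixed replicate block, 44 of 45 member results kept their call and Fgfr3 at E18.5 passed (-0.31, adjusted p = 0.048), which gave 8 calls at E18.5. With litter as a random block all 99 kept theirs. Of the LEC arrays 4 of 9 correlated best with the BEC array of their own number. A fixed block could not be fitted for age changes within a cell type, and the cause of the changes listed here was not tested. The arrays measure no depth. Fgfr4 lay near the dim bound, with group SDs of 0.03 to 0.51, and the part of low signal in that spread was not tested.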
